A study of Homo sapiens with 8 samples.

Results

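NDEL1, a dynein regulator gene on the plus strand of chromosome 17, was examined for RNA bound by RBFOX2 in HEK293T cells, a human embryonic kidney line. Its members are the plus-strand called peaks whose midpoint lies in the RefSeq span of the gene (GRCh38, chromosome 17, 8413131 to 8474328). They number 96 of the 1118316 called peaks in 4 lists, or 23, 32, 22 and 19 in replicates 1 to 4. NDEL1 was chosen with the folds and p-values of these lists known, so those values are given as a description, with no test.

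The series is an eCLIP study of 8 samples from HEK293T cells, 4 RBFOX2 immunoprecipitation (IP) libraries and 4 input libraries, numbered 1 to 4. Per the labels' protocols, cells were crosslinked with ultraviolet light of 254 nm at 400 mJ per square centimetre, so that proteins stay attached to the RNA they touch, and 2% of each lysate was kept as the paired input. The input libraries have no antibody target and otherwise share the line and the protocol. The labels do not say whether the 4 replicates were separate cultures, so the spread between them may be technical, and in a bulk lysate more binding per RNA molecule and binding in more cells cannot be told apart.

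RBFOX2 is a splicing regulator with an RNA recognition motif that prefers UGCAUG and the shorter GCAUG. It mostly acts from introns, where binding downstream of an alternative exon tends to favour its inclusion and binding upstream tends to favour skipping. NDEL1 is a coiled-coil protein that binds LIS1 (the product of PAFAH1B1) and cytoplasmic dynein, and it is known for its roles in mitosis, nuclear positioning and the migration of neurons. It is among the genes described as RBFOX2 targets.

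RefSeq lists 3 curated and 6 predicted mRNAs for the gene. Its promoter table (GRCh38.p14) places the start at 8435884, which is 22753 nt inside the span, and distances here run from this start. The bases of the bound stretches were not used here, so the RBFOX2 motif was not looked for in them. The promoter window, 250 bases before to 50 after the start, is the NDEL1 sequence that could be read, and a stretch of it on chr17:8435800-8435864, plus strand, is shown because it holds the letters of the RBFOX2 motif away from any peak. Capitals mark GCATG, which begins 54 bases before the start:

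NDEL1 promoter stretch: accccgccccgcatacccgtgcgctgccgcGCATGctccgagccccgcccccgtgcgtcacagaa

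The 300-base window held GCATG once on each strand, with both matches overlapping in the letters GCATGC. Of 35116 promoter windows of that length in the table, 29.5% held it on either strand. No called plus-strand peak of any library overlapped the NDEL1 window (0 of 4 libraries). The match is a description of the DNA before the annotated start, which lies inside the span. Whether RBFOX2 binds RNA made from it was not tested.

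Called peaks of NDEL1, which include peaks with little or no excess over input, lay in the 3′ part of the gene. The first called peak lay 24419, 22149, 22152 and 21546 nt downstream of the annotated start in replicates 1 to 4 (mean 22567 ± 1267, SD, n = 4), and the long 5′ part of the span held no called peak in any library. As a percentage of the span, the first called peak sat at 74.1% (mean over libraries) and the median called peak at 85.4%. These percentages run from the start of the span, and 37.2% of the span lies before the annotated start. Counted from the annotated start, the same peaks would sit at lower percentages. Across 5030 protein-coding genes with at least 10 called peaks in each library, the medians were 0.892% for the first peak and 49.8% for the median peak, and 11 genes had a later first peak than NDEL1. The last called peak ended 2224, 2661, 2799 and 7392 nt before the end of the span. Replicate 4 stands apart in this, with no called peak in the last stretch where the other libraries had a few.

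**Figure D1:**
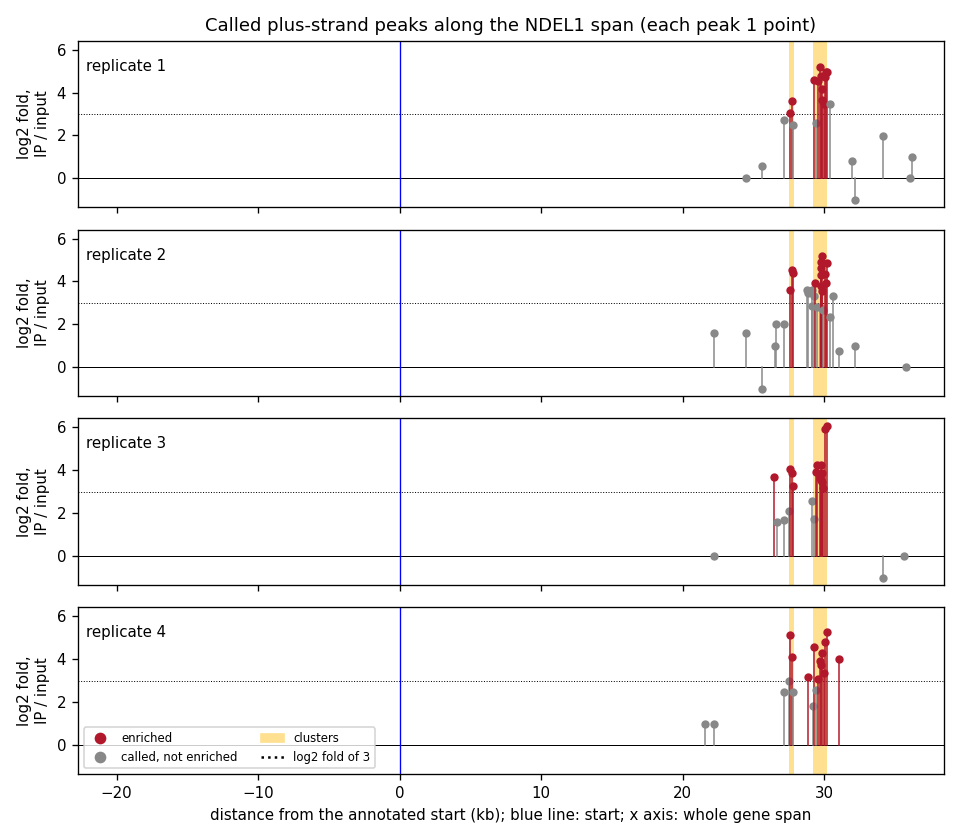
Log2 fold of IP over input (vertical axis) of each called plus-strand peak along the whole NDEL1 span, by distance from the annotated start in kb (horizontal axis), with 1 panel per library. Red points are enriched peaks, grey points are called peaks that were not enriched, and the yellow bands are the 2 clusters; all peaks lie at least 21546 nt downstream of the start (blue line).

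Most NDEL1 peaks carried far more IP than input signal. A peak was taken as enriched when its deposited log2 fold and its deposited −log10 p both reached 3, the former being 8-fold on a linear scale. By this rule 12, 13, 14 and 12 NDEL1 peaks were enriched in replicates 1 to 4 (12.75 ± 0.957, SD, n = 4), or 52.2%, 40.6%, 63.6% and 63.2% of its called peaks. Over all called peaks the share was 0.861%, 0.848%, 0.789% and 0.775% in the same order, and 0.818% in the 4 lists together. The choice of the gene used these values, so nothing is read from the difference. The median log2 fold of NDEL1 peaks was 3.46, 3.39, 3.50 and 3.35, which is a narrow range between libraries. The count of enriched peaks varied less than the count of called peaks (24.0 ± 5.60, SD, n = 4), since replicate 2 had the most called peaks and the lowest enriched share.

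Among 10503 protein-coding genes with a called peak and a known strand, 2718 had more called peaks per library than NDEL1, 26 had more enriched peaks, and 28 had more regions enriched in all 4 replicates. The number of called peaks in NDEL1 was thus not among the highest, while its number of enriched peaks was. Among the 5030 genes with at least 10 called peaks in each library, 9 had a higher enriched share than the 53.1% of NDEL1 (mean enriched over mean called peaks). Peak counts and shares here take adjoining peaks separately, and 31 of the 51 enriched NDEL1 peaks lay in 1 region of 568 nt. The rank by regions rests on merging peaks by overlap alone, which gave NDEL1 3 regions enriched in all 4 replicates. Merging peaks within 100 nt gave 2, and the rank was not redone with that rule. NDEL1 was chosen for such values, and these ranks only place it.

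All called peaks in the span lay on the strand of the gene. The minus strand of the span held 0 called peaks in each of the 4 libraries, against 19 to 32 on the plus strand. MYH10, which encodes a nonmuscle myosin heavy chain, lies on the minus strand and overlaps the NDEL1 span by 117 nt at its 3′ end. It had 75, 62, 62 and 70 called minus-strand peaks in its own span and 0 enriched ones in each library. The other neighbours, RNF222 (15304 nt upstream of the span) and LOC107987245 (7082 nt downstream), had 0 called peaks on their strands.

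Enriched peaks of the 4 libraries that shared a strand and 1 or more nt were merged, which gave 9 regions in NDEL1. Of these, 3 had an enriched peak in all 4 replicates, 1 in 3, 2 in 2 and 3 in a single one. In the whole series 16.4% of 3371 merged regions had all 4 replicates. Regions found in at least 2 replicates fell into 2 clusters, which were defined by gaps under 1000 nt and were 1366 nt apart. The upstream cluster ran from 8463401 to 8463721 (321 nt), starting 27517 nt from the annotated start. The downstream cluster ran from 8465088 to 8466093 (1006 nt), starting 29204 nt from it and ending 8235 nt before the end of the span. Exons and introns are not assigned, because the annotation used here gives spans only.

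The upstream cluster held 2 abutting regions, each enriched in all 4 replicates. The first of them (8463401 to 8463537) had a log2 fold of 3.06, 3.63, 4.05 and 5.13 in replicates 1 to 4, with a mean of 3.96 ± 0.88 (SD, n = 4). Its −log10 p was 4.56, 7.99, 7.72 and 8.97. Replicate 1 was lowest and replicate 4 highest in both values. This region had the widest spread of the 3, and 59 of the 549 regions enriched in all 4 replicates elsewhere had a larger SD. The input signal behind these folds is taken up further down. Each library contributed a single enriched peak, and the starts of these 4 peaks fell within 30 nt and their ends within 23 nt.

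In the second region (8463538 to 8463721) the log2 fold was 3.58, 4.52, 3.86 and 4.13 (mean 4.02 ± 0.40, SD, n = 4). Here replicate 2 was highest and replicate 1 lowest, so the order of the libraries was not that of the neighbouring region. The −log10 p was 7.44, 11.4, 6.61 and 7.99. The strongest peaks began within 23 nt and ended within 13 nt of each other. A weaker enriched peak followed it in replicates 2 (8463657 to 8463714, log2 fold 4.39) and 3 (8463644 to 8463721, 3.27). At the same place replicates 1 and 4 had called peaks with log2 folds of 2.50 and 2.48, below the limit of 3.

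The strongest signal of the gene lay in the downstream cluster, in a region of 568 nt from 8465526 to 8466093. It held 8, 9, 8 and 6 enriched peaks in replicates 1 to 4, 31 of the 51 enriched NDEL1 peaks. Its highest log2 fold was 5.17, 5.17, 6.07 and 5.27 (mean 5.42 ± 0.43, SD, n = 4), or 42.8-fold for the mean. Replicate 3 stood above the other 3, which lay within 0.1 of each other. By this maximum every library was higher here than in either region of the upstream cluster, but it is taken over 6 to 9 enriched peaks against 1 or 2. With the peak of the highest −log10 p in place of the maximum, 2 of the 4 libraries were not: replicate 2 had 4.34 here against 4.52 in the second upstream region, and replicate 4 had 4.79 against 5.13 in the first. With the length-weighted mean over all called peaks, which does not pick the maximum, the value was 4.30 ± 0.29, against 3.70 ± 0.64 and 3.64 ± 0.59 in the upstream regions. Of the other 549 regions enriched in all 4 replicates, 30 were longer and 63 had a higher mean of the highest log2 fold per library. That maximum was taken over more peaks here, since the region held 31 enriched peaks against a median of 6 in the others. For the first and second upstream regions, 415 and 393 of the 549 had a higher mean.

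Within this region the 4 libraries placed their strongest statistical signal on the same bases. The peak with the highest −log10 p ran from 8465872 to 8466000 in replicate 1, from 8465867 to 8465998 in replicate 2, from 8465871 to 8466000 in replicate 3 and from 8465873 to 8466001 in replicate 4. The starts thus fell within 6 nt and the ends within 3 nt, where the medians over the other 549 regions were 41 and 45 nt. Of those regions, 8.01% had a smaller range of starts and 2.37% a smaller range of ends. The −log10 p of these peaks was 31.6, 23.4, 33.7 and 27.6, and their log2 fold 4.73, 4.34, 5.94 and 4.79. Over the other 549 regions the highest −log10 p of any library had a median of 10.4, against 33.7 here. The ranges of starts and ends were not compared at like −log10 p.

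The peak with the highest log2 fold was not at 1 place in the 4 libraries. It was a 93-nt peak at 8465548 in replicate 1 and a 19-nt peak at 8465690 in replicate 2, while in replicates 3 and 4 it was the last peak of the region, from 8466001 to 8466089 and from 8466002 to 8466093. The midpoints of these peaks spanned 453.5 nt of the 568 nt of the region. The midpoints of the peaks with the highest −log10 p spanned 4.5 nt. The place of the summit thus depended on which deposited value was used.

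**Figure D2:**
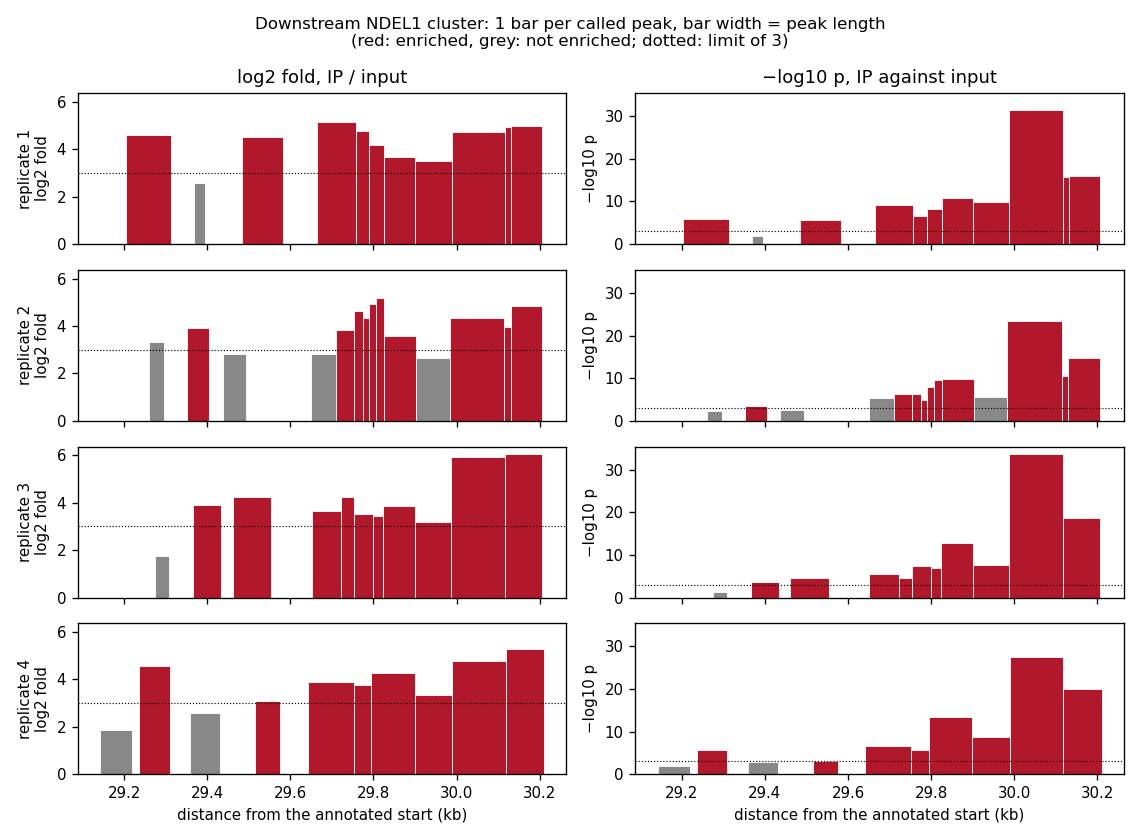
Called peaks of the downstream NDEL1 cluster in each library (rows), drawn to their length in kb from the annotated start, with the log2 fold of IP over input on the left and the −log10 p on the right. Red bars are enriched peaks and grey bars are not; the tallest −log10 p (23.4 to 33.7) stands at the same place in all 4 libraries, while the tallest log2 fold (5.17 to 6.07) does not.

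The libraries divided the bases after the strongest peak in different ways. Next to the strongest peak, the last peak had a log2 fold of 4.98 and 4.86 in replicates 1 and 2, where it began at 8466015 and 8466014, and of 6.07 and 5.27 in replicates 3 and 4. In replicates 1 and 2 a separate short peak of 14 and 15 nt preceded it, with log2 folds of 4.95 and 3.94. On the 5′ side of the strongest peak lay a stretch of lower log2 fold, from about 8465784 to 8465871, with values of 3.48, 2.66, 3.20 and 3.35. Replicate 2 fell below the limit there. The peak before it, ending between 8465782 and 8465785, had log2 folds of 3.67, 3.56, 3.86 and 4.27, with −log10 p values of 10.7, 9.89, 12.9 and 13.5.

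The gap in the bases enriched in all 4 libraries lies at that stretch. Base by base, 414 of the 1006 nt of the downstream cluster (41.2%) were covered by an enriched peak in all 4 libraries, in 2 runs, 8465594 to 8465785 (192 nt) and 8465867 to 8466088 (222 nt). In the upstream cluster 171 of 321 nt (53.3%) were covered in all 4, also in 2 runs, of 84 and 87 nt. Enriched peaks covered 956, 779, 999 and 1020 nt of NDEL1 in replicates 1 to 4. Replicate 2 covered least, and its enriched peaks were the shortest, with a median of 53 nt against 88, 77.5 and 91 nt.

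The 5′ end of the downstream cluster was less repeatable. Its 3 small regions were each enriched in only part of the libraries. The region from 8465088 to 8465196 was enriched in replicates 1 and 4, both with a log2 fold of 4.58, and had 3.32 and 1.74 in the other two. From 8465235 to 8465316 the pattern was the reverse, since replicates 2 and 3 were enriched (3.91 for both) and the other two had 2.58 each. The region from 8465345 to 8465465 was enriched in replicates 1, 3 and 4 (4.52, 4.25 and 3.09) and had a log2 fold of 2.81 in replicate 2. Each library had a called peak over all 3 regions, and the 5 that were not enriched all had a −log10 p under 3. Of these, 4 also had a log2 fold under 3, while replicate 2 in the first region met the limit on the fold and had a −log10 p of 2.20.

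**Figure D3:**
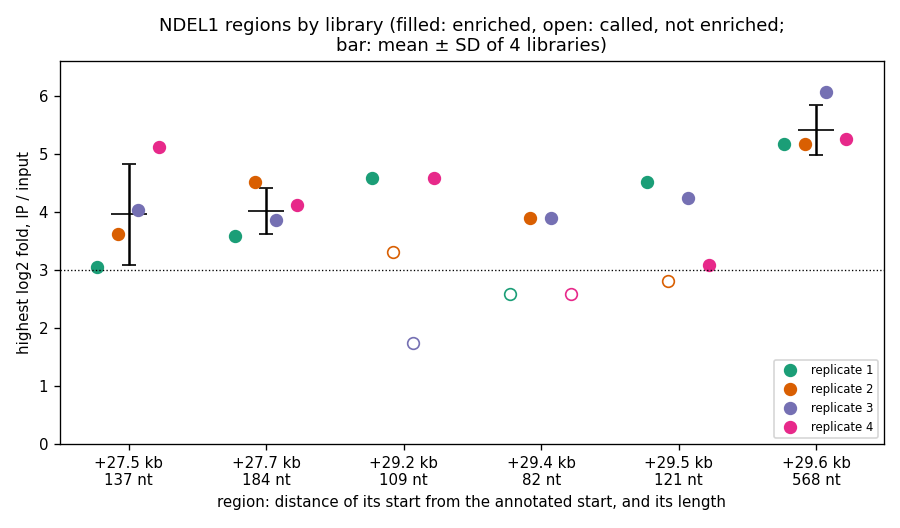
Highest log2 fold of IP over input (vertical axis) in the 6 NDEL1 regions with an enriched peak in at least 2 replicates, by distance from the annotated start (horizontal axis), with 1 point per library. Filled points are enriched and open points are called but not enriched; bars give the mean ± SD of 4 libraries for the 3 regions enriched in all of them, the last of which (5.42 ± 0.43) is highest.

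Outside the clusters lay 37 called peaks, and 3 of them were enriched, each in a single library. These were a 28-nt peak at 8462303 in replicate 3 (log2 fold 3.70), an 86-nt peak at 8464697 in replicate 4 (3.17) and a 38-nt peak at 8466899 in replicate 4 (4.00). Their −log10 p lay between 3.01 and 3.56, near the limit. Over the whole gene, 6 peaks met the limit on the fold but had a −log10 p of up to 2.74, and 5 of these lay outside the clusters. Another 5 met the limit on p but had a log2 fold of up to 2.88, and 2 of them lay outside the clusters.

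The signal fell off on both sides of the clusters. The 16 called peaks upstream of the first cluster had a median log2 fold of 1.59, the 7 between the clusters one of 3.17, and the 14 downstream of the second one of 0.90. A site 27099 to 27126 nt from the annotated start, shortly before the upstream cluster, was called in every library without being enriched in any, with log2 folds of 2.70, 2.00, 1.70 and 2.46. Of all 96 NDEL1 peaks, 3 carried more input than IP signal, with log2 folds from −1.001 to −0.999, and 5 lay within 0.01 of 0.

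The deposited values also show how much input stands behind each fold. For each enriched NDEL1 peak (51 of 51) exactly 1 pair of whole numbers, up to 300 for the input, gave both its log2 fold and its −log10 p. The fold, divided by the commonest fold of its list and multiplied by the input number, had to be whole to 0.001. The p had to match within 0.03 a two-sided binomial test at equal odds for input numbers under 5 and a chi-square test with continuity correction from 5 on. In replicates 2 and 3 the IP number was raised by 1 for the binomial p, and a chi-square p was matched with or without this step. Over the whole series 99.4% of the 9143 enriched peaks had exactly 1 such pair. The test behind the deposited p-values is not given in the sources used here, so these pairs are inferred from the values and are not read counts from a file, and an input number of 1 may stand for 0.

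In NDEL1 the input number was 1 for 18 enriched peaks, 2 for 16, 3 for 8, 4 for 3, 5 for 4 and 6 for 2. The IP number ran from 13 to 159 with a median of 35. For the peaks with the highest −log10 p in the downstream cluster the pairs were 159 and 6, 121 and 6, 123 and 2, and 138 and 5 in replicates 1 to 4. The IP numbers of these 4 peaks lay within 1.5 times of each other, and replicate 3 differed from the rest by its input number of 2, where its log2 fold was highest. The peaks with the highest log2 fold had pairs of 36 and 1, 36 and 1, 67 and 1, and 77 and 2. With 1 or 2 in the input, a change of 1 there moves the log2 fold by more than the SD of 0.43 between libraries. In the first upstream region the pairs were 25 and 3, 37 and 3, 33 and 2, and 35 and 1 in replicates 1 to 4. The part of the input numbers in the order of its log2 folds was not tested. In the stretch of lower log2 fold before the strongest peak, enriched in replicates 1, 3 and 4, the pairs were 56 and 5, 46 and 5, and 51 and 5. For the peak before that stretch they were 51 and 4, 58 and 4, and 58 and 3 in these libraries.

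**Figure D4:**
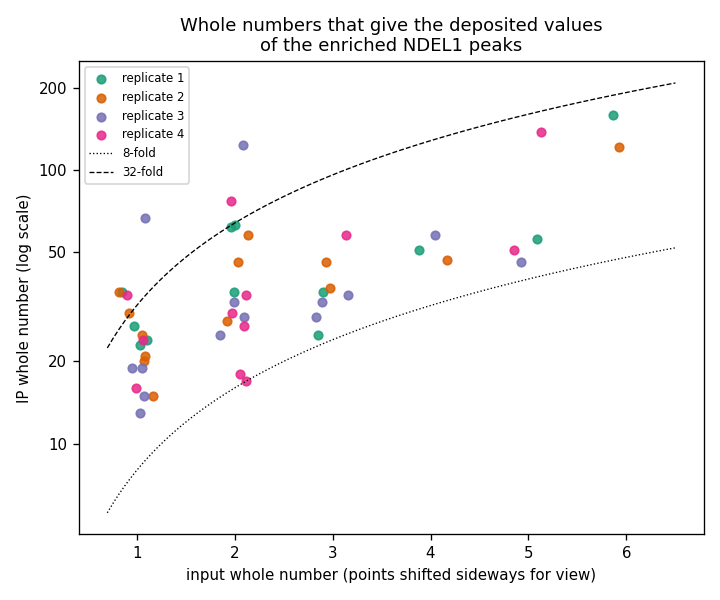
IP number (vertical axis, log scale) against input number (horizontal axis) of the whole-number pair for each of the 51 enriched NDEL1 peaks, coloured by library, with lines at 8-fold and 32-fold. Most peaks (34 of 51) have an input number of 1 or 2, and the 4 highest IP numbers, 121 to 159, are those of the peak with the highest −log10 p in each library.

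Partner genes of NDEL1 were examined as a list of 26 genes for LIS1, the paralogue NDE1, dynein subunits, dynactin subunits, dynein adaptors and related proteins. All 26 had a called peak in at least 1 library, and 5 had an enriched one, the same 5 that held a region enriched in at least 2 replicates (BICD2, DCTN1, DCTN2, DYNC1LI2 and SPDL1). Of all 10503 protein-coding genes with a called peak, 8.56% had an enriched peak, 4.91% held such a region and 2.12% a region enriched in all 4 replicates. In the list 2 genes held a region enriched in all 4, BICD2 and DCTN1. The median number of called peaks per library was 18.4 in the list and 11.5 over the 10503 genes, so the shares are not like for like. The list was described only, and 4 of its genes were counted on either strand because their strand was not known.

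BICD2, an adaptor that links dynein to its cargo, had the most enriched peaks of the list. It had 9, 9, 14 and 8 enriched peaks of 18, 20, 28 and 27 called ones, and 8 regions enriched in at least 2 replicates, 3 of them in all 4. The strongest (chromosome 9, 92713585 to 92713752, minus strand) had log2 folds of 4.47, 4.49, 6.21 and 4.91, with replicate 3 highest as in NDEL1. DCTN1, the largest dynactin subunit, had 4 regions enriched in at least 2 replicates. The 1 enriched in all 4 replicates (chromosome 2, 74375733 to 74375921, minus strand) had log2 folds of 3.81, 5.13, 4.25 and 4.00. Each of the others was enriched in 3 replicates. In DCTN2, another dynactin subunit, 1 region was enriched in replicates 1, 2 and 3 (3.58, 3.97 and 4.09). DYNC1LI2, a dynein light intermediate chain, had 1 enriched in replicates 3 and 4 (3.70 and 4.00), and SPDL1, a dynein adaptor at kinetochores, 1 in replicates 2 and 3 (4.00 and 4.09).

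The other 21 genes of the list had 0 enriched peaks. PAFAH1B1, which encodes LIS1, had 58, 70, 66 and 78 called peaks, and NDE1, the paralogue of NDEL1, had 33, 34, 33 and 32. Both had more called peaks than NDEL1 in every library. DYNC1H1, the dynein heavy chain, had between 86 and 92 called peaks.

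Of the 16 other protein-coding genes with 3 regions enriched in all 4 replicates, those whose strongest region was most like the strongest one of NDEL1 were ZNF362, BICD2, FAM13B, WDR90 and U2AF2. The count of 3 for NDEL1 fell to 2 when peaks within 100 nt were merged. Likeness was the Euclidean distance between the 4 log2 folds of the strongest regions, 1 per library. It was 0.86 for ZNF362 (4.86, 4.76, 5.67 and 4.70 in replicates 1 to 4), 1.04 for BICD2, 1.26 for FAM13B, 1.31 for WDR90 and 1.47 for U2AF2. In ZNF362 and BICD2 replicate 3 was highest, as in NDEL1, while in FAM13B, WDR90 and U2AF2 it was not. Over all libraries the strongest region measured 4.62 to 6.23 in log2 fold in ZNF362, FAM13B, WDR90 and U2AF2, and 4.47 to 6.21 in BICD2. The genes were picked by closeness to NDEL1 in these same folds, so nothing is read from their likeness to its 5.17 to 6.07.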

How the data were processed

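The authors deposited 1 list of called peaks per IP library, already compared with its paired input. Column 4, read from its values as the deposited −log10 p, and column 5, read as the deposited log2 fold of IP over input, have no header. Per the submitters' processing notes, UMI-tools 1.1.1, cutadapt 3.2, STAR 2.7.7a and the builds hg38 and GRCh38.p13 were used; the peak caller, its test, scaling and filters are not given in the sources used here. No library total was at hand, so the depth is unknown and folds carry no counting interval. Coordinates are 1-based on GRCh38.

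Gene spans, strands and the promoter came from RefSeq tables of GRCh38.p14. Named genes were NDEL1, partner-list genes with a region enriched in at least 2 replicates, the neighbours and the 5 genes most alike. PAFAH1B1, NDE1 and DYNC1H1 were named after their values were seen. The members, lists and thresholds were chosen with earlier results of these data known. Merging and the whole-number search were tested on simulated data. Scripts ran in Python 3.11.15 with pandas 2.3.3, numpy 2.4.6, scipy 1.17.1 and matplotlib 3.10.9. Alternatives were other limits, gaps and overlaps, and leaving out each replicate.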

Additional observations from a re-analysis of the deposited data

Results flagged for a closer look

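Of 15 sets of 4 library values checked for a single value far from the rest, 2 stood out. Chance flags about 1 in 20 sets of normally distributed values, while these sets include counts and maxima. The sets are also not all separate. The highest −log10 p of the gene and that of the region from 8465526 to 8466093 are the same 4 values. The highest log2 fold of the region from 8465526 to 8466093 was 6.07 in replicate 3, against 5.17, 5.17 and 5.27 in the others. The input number behind it was 1, and the part of that number in the result was not tested. The last called NDEL1 peak ended 7392 nt before the end of the span in replicate 4, against 2224, 2661 and 2799 nt in replicates 1 to 3. Past the last peak of replicate 4, the other libraries held 9 called peaks, with log2 folds of at most 2.00 and no enriched one.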

How the results depend on the processing

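Of 60 alternative values, 52 stayed within 1.5 times the value given (counts) or within 1 SD (other values). A fall from 3 regions to 2 counts as within 1.5 times. In the 2 upstream regions the highest −log10 p and the highest log2 fold fell on the same peaks. There the alternative by −log10 p could only repeat the value given. A −log10 p of at least 5 lowered the enriched share of NDEL1 peaks from 54.9% (mean of 4 libraries) to 43.8%, and asking for a log2 fold of 4 or more without any limit on p lowered it to 28.5% and the enriched peaks per library from 12.75 to 6.75. An input number of at least 2, an alternative added after seeing the data, gave 8.25 enriched peaks. The regions in all 4 replicates, 3 as given, fell to 2 under that alternative, under both limits just named and on merging peaks within 100 nt. Counting a replicate with any called peak gave 6. Joining regions less than 2000 nt apart gave 1 cluster against 2. The mean log2 fold of the region from 8465526 was 4.95 with the peak of the highest −log10 p and 4.30 as a length-weighted mean, against 5.42. Leaving out each replicate in turn gave 12.3 to 13 enriched peaks, 21.3 to 25.7 called peaks, an enriched share of 52.0% to 59.7%, 3 or 4 regions shared by the remaining libraries and 2 clusters in each case. The mean log2 folds of the 3 regions then ran from 3.58 to 4.27, from 3.86 to 4.17 and from 5.20 to 5.50. The planned search for GCATG in the regions was not run, since no sequence of them was at hand. No paired analysis was possible because no result here comes from a test; each deposited fold already sets an IP library against its own input.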
